A study of Homo sapiens with 4 samples.

Results

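The accessible regions of OPM-2 cells exposed to all-trans retinoic acid (ATRA) were set against those of cells exposed to pomalidomide (POM), by the peaks called in each ATAC-seq library. The members are all 76636 peaks of the ATRA list and all 69162 peaks of the POM list on chromosomes 1 to 22 and X, which is 145798 of the 307634 peaks in the 4 lists of the series. OPM-2 is an established human multiple myeloma line that the series title places among t(4;14) myelomas, so every library comes from 1 line. The cells were kept for 72 h in 1 µM ATRA or in 1 µM POM. A library of DMSO (the vehicle) and a library of ATRA+POM (1 µM of each agent), also taken at 72 h, served only to look up the same regions. Each condition had 1 library, so the differences below cannot be set against a spread between replicates, and no test was run.

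In ATAC-seq the Tn5 transposase inserts adapters into DNA that nucleosomes leave open, so read pileups mark promoters and distal regulatory elements. ATRA is the ligand of the retinoic acid receptors, which bind response elements as heterodimers with retinoid X receptors and exchange corepressors for coactivators when the ligand binds. POM binds cereblon, the substrate receptor of a ubiquitin ligase, and directs it to the zinc finger factors IKZF1 and IKZF3, which myeloma cells need to keep IRF4 and MYC expressed.

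Regions that ranked higher in the ATRA library lay more often at gene boundaries and in gene-rich DNA, and those that ranked higher in the POM library more often far from genes. The few promoters on the POM side had a lower median number of CG, with a wide range. A set of 5 stretches shows how far promoters of the 2 sides can differ, each the 250 bases before a RefSeq start site (GRCh38.p14), printed 5′ to 3′ on the strand of the gene, with every CG in capitals. The promoters of S1PR2 and MKI67 overlapped regions that ranked higher in the ATRA library. Those of CCDC198, CD1A and CXCL8 overlapped regions that ranked higher in the POM library.
S1PR2 (chr19:10231332-10231581, - strand): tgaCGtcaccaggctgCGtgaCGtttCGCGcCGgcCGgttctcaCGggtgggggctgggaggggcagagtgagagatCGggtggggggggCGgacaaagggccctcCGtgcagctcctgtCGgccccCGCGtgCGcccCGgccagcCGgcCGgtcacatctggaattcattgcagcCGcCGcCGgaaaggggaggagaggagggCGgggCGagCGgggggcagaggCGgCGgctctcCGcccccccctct
MKI67 (chr10:128126424-128126673, - strand): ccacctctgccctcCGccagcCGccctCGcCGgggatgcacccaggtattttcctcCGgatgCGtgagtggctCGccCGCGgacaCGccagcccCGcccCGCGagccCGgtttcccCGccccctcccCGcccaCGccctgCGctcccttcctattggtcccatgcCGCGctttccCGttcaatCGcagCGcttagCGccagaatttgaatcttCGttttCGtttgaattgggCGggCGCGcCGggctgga
CCDC198 (chr14:57493858-57494107, - strand): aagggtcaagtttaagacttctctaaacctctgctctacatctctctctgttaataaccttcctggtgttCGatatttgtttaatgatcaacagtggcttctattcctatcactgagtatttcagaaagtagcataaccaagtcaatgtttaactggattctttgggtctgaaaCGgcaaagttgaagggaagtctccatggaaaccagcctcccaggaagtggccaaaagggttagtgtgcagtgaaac
CD1A (chr1:158248086-158248335, + strand): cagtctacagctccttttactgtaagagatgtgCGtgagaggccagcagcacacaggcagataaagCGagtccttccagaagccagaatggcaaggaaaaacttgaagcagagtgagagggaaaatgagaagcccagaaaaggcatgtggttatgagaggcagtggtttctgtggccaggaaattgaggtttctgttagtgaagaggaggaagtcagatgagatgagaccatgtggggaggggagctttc
CXCL8 (chr4:73740319-73740568, + strand): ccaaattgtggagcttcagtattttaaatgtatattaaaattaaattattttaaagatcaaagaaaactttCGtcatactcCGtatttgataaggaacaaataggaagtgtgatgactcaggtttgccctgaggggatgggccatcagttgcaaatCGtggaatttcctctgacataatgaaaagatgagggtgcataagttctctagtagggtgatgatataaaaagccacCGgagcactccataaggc
The stretches of S1PR2 and MKI67 hold 27 and 30 CG, with GC contents of 74.0% and 68.4%. The stretches of CCDC198, CD1A and CXCL8 hold 2, 2 and 4 CG, with GC contents of 41.6%, 49.2% and 37.6%. These genes were picked from those named below after their values were seen, and they are not typical of every promoter of their side. The promoter of NOL12, the boundary region with the largest shift toward ATRA among those named, holds 12 CG in the same stretch.

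The lists differ in depth and threshold, which bears on every count. The background coverage recovered from the peak values was 2.36 reads for ATRA and 0.55 for POM, and the POM depth was estimated at 35.7% of that of ATRA. The median pileup at a peak summit was 27 reads in ATRA and 15 in POM, and the smallest pileup called was 8 and 4. Peaks covered 51.9 Mb in ATRA and 30.6 Mb in POM, and 10.1% of ATRA peaks against 38.7% of POM peaks were narrower than 300 bp. Comparisons were therefore made on ranks of the −log10 q-value within each library, but a rank does not remove a difference in depth. Depth and agent cannot be told apart here. Of 10 plasma cell markers, 8 had a peak within 1 kb of a gene boundary in ATRA and 9 in POM, among them PRDM1, XBP1, IRF4, SDC1 and TNFRSF17 in both, while JCHAIN had none. Of the markers of other cells, 3 of 6 T cell, 1 of 5 myeloid and 1 of 4 epithelial genes had such a peak in each of the 2 libraries, and CD14, LYZ, CSF1R, EPCAM and CDH1 had none.

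Strong list-specific peaks, those among the 20000 with the highest −log10 q-value of one list and without an overlap of 1 bp with the other list, were few in both directions. There were 364 in the ATRA list (1.82%, Wilson 95% interval 1.64 to 2.01) and 669 in the POM list (3.35%, 3.10 to 3.60). These intervals cover counting error only. The last peak among the 20000 had a −log10 q-value of 30.48 and a pileup of 52 reads in ATRA, and 21.59 and 23 reads in POM. The order of the 2 counts turned with the 30000 highest peaks of each list (2005 ATRA-only against 1853 POM-only) and when an overlap had to span at least 50% of the peak (5140 against 810). Over peaks of any rank, 29138 of the ATRA list (38.0%) and 20000 of the POM list (28.9%) had no overlap in the other.

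The 2 sets lay in different parts of the genome. Of the strong ATRA-only peaks, 37 (10.2%, 7.46 to 13.7) had their summit at most 1 kb from the boundary of a protein-coding gene and 16 (4.40%, 2.72 to 7.02) lay farther than 100 kb from any gene body, here called gene deserts. Of the strong POM-only peaks, 16 (2.39%, 1.48 to 3.85) lay at a boundary and 198 (29.6%, 26.3 to 33.2) in a desert. Among all 20000 strongest peaks the desert share was 7.24% in ATRA and 11.6% in POM, and the boundary share 41.7% and 35.8%. The median number of protein-coding genes within 500 kb was 13 around a strong ATRA-only peak and 4 around a strong POM-only peak, against 10 and 8 around the 20000 strongest of each list. Chromosome 19 held 43 strong ATRA-only and 4 strong POM-only peaks, chromosome 17 held 37 and 10, and chromosome 22 held 11 and 1. Chromosome 4 had the opposite balance, with 12 ATRA-only and 72 POM-only.

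The libraries outside the comparison also split the 2 sets. Of the 364 strong ATRA-only peaks, 363 (99.7%, 98.5 to 100) overlapped a DMSO peak and 312 (85.7%, 81.7 to 88.9) an ATRA+POM peak. Of the 669 strong POM-only peaks, 311 (46.5%, 42.7 to 50.3) overlapped a DMSO peak and 636 (95.1%, 93.2 to 96.5) an ATRA+POM peak. Of all regions called in both ATRA and POM, 94.8% were called in DMSO and 94.5% in ATRA+POM. The same shares over all 20000 strongest peaks of each list were not counted. The POM-only peaks were chosen for absence from ATRA, and the depth of DMSO was estimated at 106% of that of ATRA. Such a choice is part of their lower share in DMSO. Among these strong peaks the ATRA-only set was almost entirely called in DMSO too, and most of the POM-only set in the other library that had received POM. Over list-specific peaks of any rank the shares were lower: 57.2% of the ATRA-only peaks overlapped a DMSO peak and 39.4% an ATRA+POM peak, while 53.1% of the POM-only peaks overlapped an ATRA+POM peak and 3794 of the 20000 a DMSO peak. Of these, 9720 ATRA-only and 8514 POM-only peaks were in neither of the other lists. The 1 strong ATRA-only peak found in neither of the other lists lay 13199 bp from CBX8, a Polycomb chromodomain protein, with a pileup of 103 reads. In the strong POM-only set 21 peaks were in neither.

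Of the strong ATRA-only peaks, the highest −log10 q-value (129.7, pileup 203 reads) was at the promoter of POGZ, a chromatin regulator with zinc fingers, on chr1:151459067-151459847, 5 bp from a gene boundary. Scaled by the median pileup ratio of the shared regions (0.458 POM reads per ATRA read), this pileup corresponds to 93.0 reads in POM, where peaks were called from 4 reads upwards. Over boundary regions alone the median ratio was 0.333, which gives fewer reads. The smallest pileup called is that of the whole list and is not matched to the background around this peak. The next lay at the boundary of TPTEP2-CSNK1E, a readthrough gene that includes casein kinase 1 epsilon, with a pileup of 169 reads. A peak near UBXN6, a cofactor of the VCP ATPase, had a pileup of 132 reads. These 3 peaks lay in gene-rich surroundings, with 38, 25 and 31 genes within 500 kb. Another 6 of the 10 highest had pileups from 83 to 124 reads. They lay in TNN, a tenascin of the extracellular matrix, in the Rap activator RAPGEF2, in ARHGEF11, a guanine nucleotide exchange factor, in the zinc finger gene ZNF550, 24729 bp from IER5L, an immediate early response relative, and at chr16:29264994-29265555 with no gene within 100 kb. Each of these 9 was called in DMSO, and all but those at TPTEP2-CSNK1E and ARHGEF11 in ATRA+POM.

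Among the strong POM-only peaks, the second highest was a distal peak whose nearest gene encodes a retinoid receptor. The peak lay at chr1:165482105-165482485, 37230 bp from RXRG, which encodes retinoid X receptor gamma, and had a −log10 q-value of 113.8 and a pileup of 112 reads. The same scale gives 244 reads in ATRA, where peaks were called from 8 reads upwards. It was also called in ATRA+POM and not in DMSO, so both libraries with POM held it and both without POM lacked it. RXRG had no peak within 1 kb of its own boundaries in any of the 4 lists. A peak in CNTNAP2, a neuronal adhesion protein of the neurexin superfamily, had a pileup of 105 reads and 1 near GOLIM4, a Golgi membrane protein, had 101. Others near ZBTB49 (a zinc finger factor), TACR1 (the substance P receptor), CFAP45 (a cilium protein), SH3BGRL and TENM4 (a teneurin) had 63 to 84 reads. The peak with the highest −log10 q-value (117.0, 95 reads, 184 bp wide) lay 14678 bp from TCAF1, and the fifth lay near GRAP (65 reads, 223 bp wide). Both stand beside near-identical gene copies and neither was called in ATRA+POM, so these 2 are uncertain.

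Few genes collected more than 1 strong list-specific peak. The 348 strong ATRA-only peaks with a gene within 100 kb fell to 342 genes, 5 of them with 2 or more. GSE1, a coiled-coil protein of a histone deacetylase complex, had 3, while CYTH1 (an ARF activator), SEPTIN7 (a cytoskeletal GTPase), BCL11A (a zinc finger repressor) and PTPN20 had 2 each. PTPN20 lies in a duplicated segment and is uncertain. The 471 strong POM-only peaks with a gene within 100 kb fell to 446 genes, 23 of them with 2 or more. GOLIM4 and RGS6, a regulator of G protein signalling, had 3 each, and CNTNAP2 and LRATD1 had 2 each.

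Ranks were then compared at the 47374 regions called in both libraries. Each region took its percentile of the −log10 q-value among these regions in each library, and the rank shift is the ATRA percentile minus the POM percentile. The Spearman correlation between the percentiles was 0.74 across regions, which are not independent replicates. A total of 7275 regions (15.4%) ranked 20 percentile points or more higher in ATRA and 6997 (14.8%) ranked that much higher in POM. Percentiles were taken over the same regions in both libraries, which balances the 2 directions over the genome and leaves their place free. Below, "by fold" and "by pileup" give the same shift with regions ranked by the deposited fold or by the recovered pileup, for the named regions where that ends a call, turns a sign or moves a called value by over 1.5 times. At gene boundaries 1806 of 9781 regions (18.5%) were higher in ATRA and 260 (2.66%) in POM. In gene deserts 669 of 7218 regions (9.27%) were higher in ATRA and 1798 (24.9%) in POM.

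The median shift was 4.27 points at gene boundaries, -0.02 in gene bodies, -0.38 outside genes but within 100 kb, and -6.29 in deserts. The middle 50% of regions ran from -1.36 to 15.43 at boundaries and from -19.96 to 5.84 in deserts, so the compartments overlapped widely. Boundary regions crowd at the top of both lists, where ranks have little room to differ. Split into 5 groups of equal size by the mean of both percentiles, boundary regions had median shifts of 5.32, 15.22, 21.19, 16.15 and 1.63 points from the lowest group to the highest. Desert regions in the same groups had -1.31, -8.87, -10.21, -10.27 and -7.28. Boundary and desert regions thus stood on opposite sides of 0 at every level. Regions within 1 kb of a start site of the RefSeq promoter windows had a median of 4.11 points over 8689 regions. Boundary regions farther than that from any of these start sites had 4.04 over 737. The second set is not limited to gene ends, because it can hold gene starts that the windows lack. These 2 sets differed in level, with median ATRA percentiles of 86.9 and 60.2, and 2.27% of the first and 8.68% of the second were higher in POM.

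**Figure D1:**
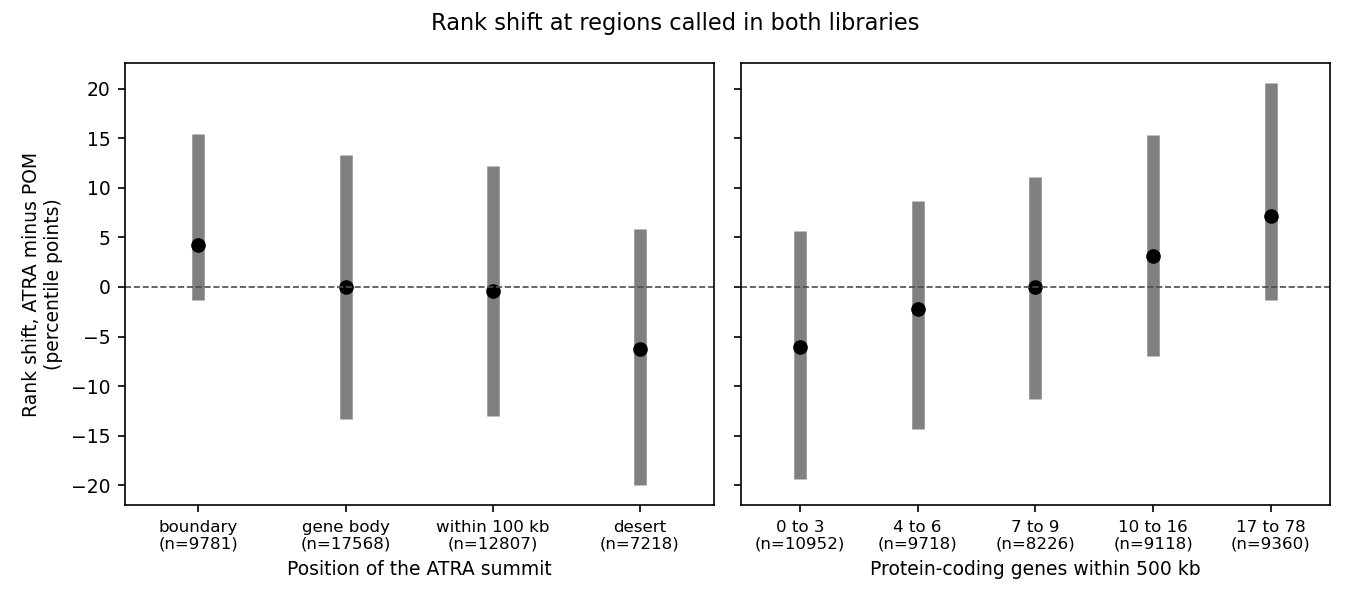
Rank shift (ATRA minus POM, in percentile points) of the 47374 shared regions, by the position of the ATRA summit (left) and by the number of protein-coding genes within 500 kb (right); points are medians and bars span the middle 50% of regions. The medians fall from 4.27 at boundaries to -6.29 in deserts and climb from -6.06 to 7.13 with gene number.

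The shift followed the number of genes around a region. Regions with 0 to 3 protein-coding genes within 500 kb had a median of -6.06 points, those with 4 to 6 genes -2.23, with 7 to 9 genes 0.02, with 10 to 16 genes 3.08, and with 17 to 78 genes 7.13. Without the boundary regions the medians still ran from -6.57 to 6.21. The quantity behind this order was read from the recovered pileups. In the group with the fewest genes the median region had 26 reads in ATRA and 17 in POM, and in the group with most genes 80 and 26. The local background moved in the same direction: the median ratio of POM to ATRA background was 0.297 where genes were fewest and 0.178 where they were most numerous. The ratio of POM to ATRA pileup went from 0.615 to 0.314. The deposited fold, which divides the pileup by that background, showed much less of the order, with median shifts of its own ranks from -1.53 to 1.57. Pileups at the summits and the coverage around them thus moved together, and the part of the background in the rank shifts was not tested.

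The chromosomes with the highest and lowest medians differed in gene content. The median shift was highest on chromosome 22 (12.77 points), chromosome 19 (11.89) and chromosome 17 (9.04), and lowest on chromosome 4 (-4.40), X (-2.26) and chromosome 3 (-1.94). Chromosome 19 carries 24.8 of the protein-coding genes used per Mb and chromosome 4 carries 4.04. Of the 1613 shared regions on chromosome 19, 558 (34.6%) ranked 20 points or more higher in ATRA and 52 (3.22%) in POM. On chromosome 4 the counts were 228 (8.01%) and 641 (22.5%) of 2848. Gene content did not order every chromosome: 13 and 18 carry 2.96 and 3.36 genes per Mb, fewer than chromosome 4, and had medians of -1.78 and -0.19. Chromosome 22, with the highest median, carries 8.88 genes per Mb, while chromosome 11 carries 9.63 and chromosome 1 carries 8.28, with medians of 0.66 and 0.05. Chromosome 21 carries 5.12 and had a median of 5.81.

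**Figure D2:**
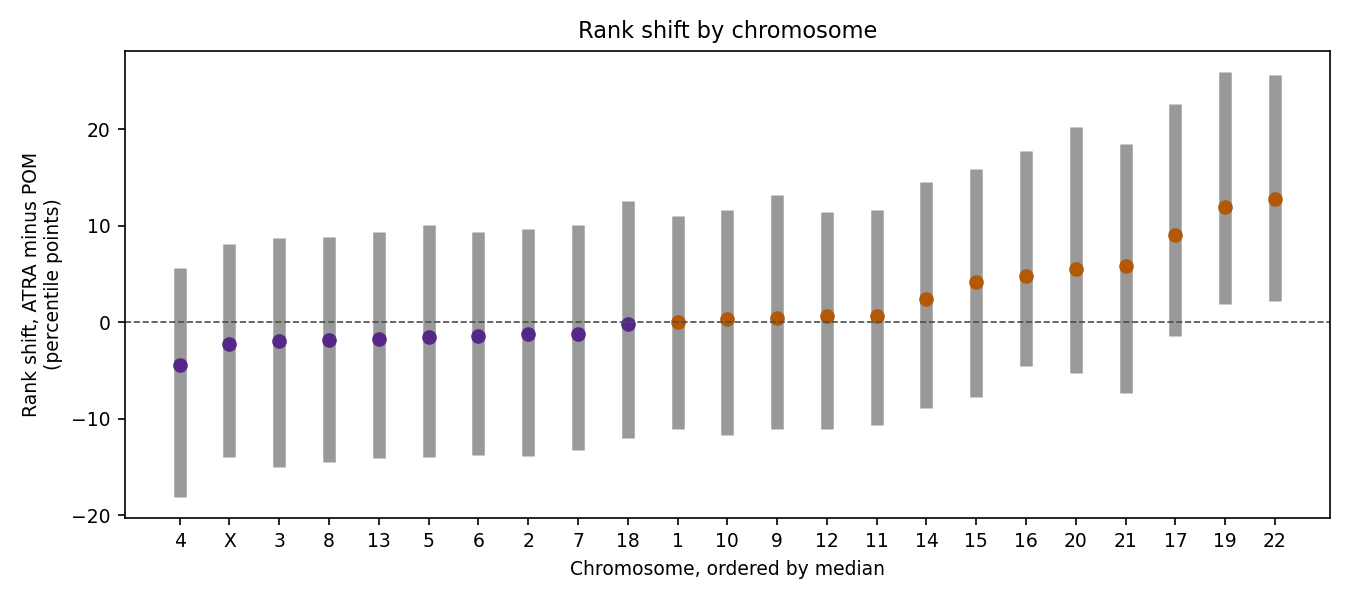
Median rank shift (points, percentile points on the vertical axis) of the shared regions on each chromosome, with bars for the middle 50% of regions. The chromosomes are ordered by median, from -4.40 on chromosome 4 to 12.77 on chromosome 22.

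Within chromosomes, 1290 windows of 2 Mb held 15 or more shared regions. The median shift was 10 points or more in 104 windows, which held a median of 36.5 protein-coding genes, and -10 or less in 96 windows, which held 4, against 11 over all windows. The 5 windows highest in ATRA were on chromosome 22 from 48 to 50 Mb (21.99 points, with BRD1 and PIM3), 50 to 52 Mb (20.90) and 22 to 24 Mb (20.67, with BCR, SMARCB1 and MIF), and on chromosome 17 from 4 to 6 Mb (20.83) and 38 to 40 Mb (20.40). The last of these holds IKZF3, a zinc finger factor that POM directs to cereblon, beside ERBB2 and CDK12. Its 35 regions included 18 that ranked 20 points or more higher in ATRA and 0 higher in POM. The 5 windows highest in POM were on chromosome 7 from 136 to 138 Mb (-21.86, with the muscarinic receptor gene CHRM2 and the growth factor gene PTN), chromosome 8 from 4 to 6 Mb (-21.83, with CSMD1), chromosome 6 from 120 to 122 Mb (-20.58, with the connexin gene GJA1), chromosome 2 from 132 to 134 Mb (-20.00, with NCKAP5) and X from 86 to 88 Mb (-19.66, with DACH2). They held 2 to 6 protein-coding genes each.

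At gene boundaries, the largest shifts toward ATRA came with a pileup of 17 reads or fewer in POM. The region at NOL12, a nucleolar protein (chr22:37686108-37687138), had pileups of 101 reads in DMSO, 94 in ATRA, 9 in POM and 26 in ATRA+POM. Its percentile was 76.1 in ATRA and 4.12 in POM, a shift of 71.97 points. The region at S1PR2, a sphingosine 1-phosphate receptor, had 102, 100, 9 and 24 reads in the same order and a shift of 71.66. NDUFAF1, an assembly factor of respiratory complex I, had 114, 95, 7 and 34 reads and a shift of 70.89. DMSO and ATRA stood together in all 3 regions, and ATRA+POM lay between them and POM. Others were at RPTOR (the raptor subunit of mTORC1), VAV1 (a guanine nucleotide exchange factor of blood cells), SIRT7 (a sirtuin deacetylase), RAD21L1 (a meiotic cohesin subunit), PPM1E (a phosphatase) and H2AC18 (a histone H2A gene with a near-identical copy, hence uncertain). Their shifts ran from 67.52 to 64.02 points, with 65 to 140 reads in ATRA and 6 to 17 in POM. Ranked by fold, the H2AC18 shift was 26.45.

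The boundary regions with the largest shift toward POM ranked in the lower part of the shared regions in ATRA, from percentile 0.947 to 34.7. FMO1, a flavin monooxygenase (chr1:171286258-171286812), had 27 reads in DMSO, 14 in ATRA, 53 in POM and 91 in ATRA+POM, and its percentile was 4.09 in ATRA and 85.9 in POM. With less depth, POM had the higher read number here. IKBKE, a kinase of innate immune signalling, had 17, 17, 49 and 104 reads and a shift of -72.12. CD1A, which presents lipid antigens, had 54, 35, 104 and 172 reads and a shift of -62.08. The region at CXCL8, the neutrophil chemokine interleukin 8, was not called in DMSO and had 15 reads in ATRA, 29 in POM and 57 in ATRA+POM. BCO1, which cleaves beta-carotene to retinal and so stands at the entry to retinoid synthesis, had 21, 14, 27 and 64 reads and a shift of -55.32. Others were in LOC124902530 beside RASSF4, at CCDC198, CHRM3 (a muscarinic receptor) and PRXL2A, with shifts from -81.00 to -60.65. A gene boundary can be either end of a gene. The regions at CXCL8, CD1A, CCDC198 and BCO1 lay 37 to 166 bp from a start site of their own gene in the promoter windows. For FMO1, IKBKE, CHRM3 and PRXL2A the nearest such start site was of another gene, 27627, 11131, 176912 and 17492 bp away. These 4 were thus not shown to be promoters. Ranked by pileup, the shift at CHRM3 (-61.72) was -33.55. In all 9 regions named in this paragraph the ATRA+POM pileup was above the ATRA pileup. The depth of ATRA+POM was estimated at 66.7% of that of ATRA.

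**Figure D3:**
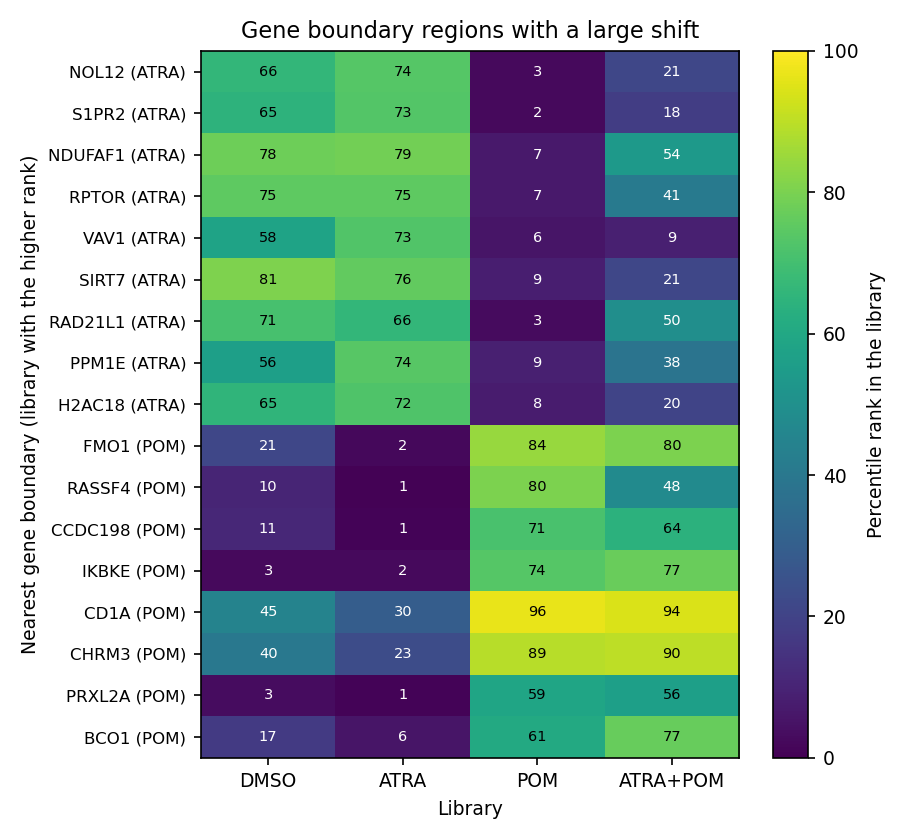
Percentile rank in each of the 4 libraries, over the regions called in all 4, of the gene boundary regions named in the text with a large shift toward ATRA (9 upper rows) and toward POM (8 lower rows; the CXCL8 region, not called in DMSO, is left out). The upper rows are above 55 in DMSO and ATRA and below 10 in POM; the lower rows are at 30 or below in ATRA and above 55 in POM.

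Promoter sequence differed between the 2 directions in its medians, with a wide overlap. Of 22131 promoter windows of RefSeq (GRCh38.p14, 250 bases before to 50 after the start site, for 15811 genes), 8385 overlapped a shared region. In the 1445 windows whose region ranked 20 points or more higher in ATRA the median GC content was 67.0% with 28 CG. In the 172 windows higher in POM it was 59.0% with 13 CG, against 66.0% and 27 over the 8385. The middle 50% ran from 20 to 36 CG on the ATRA side and from 4 to 37 on the POM side, so some POM-side promoters were as CpG-rich as those of the ATRA side. In the highest of 5 groups by rank level the 19 windows higher in POM had a median of 71.7% GC and 32 CG, and the 155 higher in ATRA 68.0% and 31. Exact matches on either strand to CCGGAAG, the core bound by many ETS factors, were in 23.9% of the windows higher in ATRA, 6.40% of those higher in POM, 20.3% of windows with a shared region and 12.8% of all windows. The palindrome bound by NRF1 was in 14.4%, 2.33%, 12.8% and 7.40% in the same order. TATAAA was in 5.88%, 11.6%, 5.03% and 9.46%, and CAGGAAG was in 10.8%, 22.1%, 11.9% and 12.6%. CAGGAAG and CCGGAAG share the letters GGAAG, and over all levels the higher shares of the 2 ETS-like words lay on opposite sides. In the second lowest of 5 groups by rank level, CAGGAAG was in 21.9% of 32 windows higher in POM and 20.5% of 161 others. In the middle group it was in 26.7% of 45 and 13.1% of 289. CCGGAAG and the NRF1 palindrome contain CG, and their shares were not separated from the CG numbers above. The CCAAT box was at like shares in both directions, 26.0% and 26.2%, and in 37.2% of windows with a shared region. In the middle group by rank level it was in 24.1% of windows higher in ATRA, 24.4% of those higher in POM and 26.6% of the others. In the highest group it was in 43.4% of the 5115 others. AGGTCA, a word bound by retinoid and other nuclear receptors, was in 9.41% and 11.0%. A match is a word in the window and does not show binding. In the middle of 5 groups by rank level, CCGGAAG was in 22.5% of 373 windows higher in ATRA, 2.22% of 45 higher in POM and 9.34% of 289 others. In the next higher group it was in 27.7% of 725, 12.9% of 62 and 14.2% of 1016, so the windows higher in POM stood near the others there. In the lowest group the 34 windows higher in ATRA (5.88%) stood near the 187 others (6.42%).

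Away from boundaries, the largest shifts toward ATRA included a region with no gene within 100 kb (chr17:26885376-26885954), with pileups of 108 reads in DMSO, 114 in ATRA, 6 in POM and 13 in ATRA+POM and a shift of 80.30 points. It was low in both libraries with POM. A region in ZNF341, a zinc finger factor (chr20:33778446-33779216), had 77, 87, 5 and 22 reads. A region in CREM, a cAMP-responsive transcription factor (chr10:35185276-35186231), had 38, 71, 4 and 22 reads, so that DMSO lay between ATRA and ATRA+POM. A region near CBFA2T3, a corepressor of blood cells, had 167, 162, 14 and 40. The region near MAP1LC3C, an autophagy protein, had 71, 120, 10 and 64 reads, with ATRA+POM near DMSO. The shift at CBFA2T3, 71.77 points, was 29.51 when ranked by fold. CCDC42 and LOC102724428 complete the 10 with NOL12, S1PR2 and NDUFAF1; the last locus, LOC102724428, has a near-identical copy and is uncertain.

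The largest shift toward POM was in the gene body of ROBO2, a receptor for Slit guidance proteins (chr3:77467835-77468414), with 18 reads in DMSO, 11 in ATRA, 80 in POM and 150 in ATRA+POM. It stood at percentile 3.30 in ATRA and 93.5 in POM. A desert region on chr5:3373263-3374039 had 22, 11, 73 and 109 reads. Regions near CD164, a sialomucin of blood progenitors, and ITGB1, the integrin beta 1 chain, had 15, 13, 76 and 119 reads and 35, 17, 84 and 131. Those near SOD3, the extracellular superoxide dismutase, and FGF2, a fibroblast growth factor, had 14, 9, 52 and 89 and 20, 13, 68 and 107. In each of these regions both libraries with POM were above both libraries without it. The same held for SMCO2 (10, 11, 57 and 87), METTL9, a histidine methyltransferase (30, 10, 54 and 111), a desert region on chr8:72418319-72419164 (13, 13, 71 and 97) and GPR89A (19, 12, 55 and 73), which has a near-identical copy and is uncertain.

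Some genes shifted over many regions. Of 735 genes with 8 or more shared regions, 285 had a median shift above 0 and 450 below. The highest medians were those of RAPGEF1, a Rap activator (29.01 points over 9 regions), B4GALT5, a galactosyltransferase (27.46 over 9), IER5L (27.31 over 8), the calcium channel gene CACNA1A (25.88 over 13), SEPTIN9 (25.42 over 8), ASRGL1 (25.13 over 8), the insulin receptor gene INSR (24.40 over 8) and CDH4 (23.17 over 9). In 7 of these 8 genes no region was 20 points higher in POM; CACNA1A had 3. Among the lowest were ANO6, a phospholipid scramblase (-28.70 over 9), PTPRD, a receptor phosphatase (-27.09 over 8), the ephrin receptor gene EPHA4 (-24.49 over 8), DAB1, an adaptor of reelin signalling (-24.18 over 9), TGFB2 (-23.98 over 10), IMMP2L (-23.91 over 13) and FGGY (-23.65 over 13). PTPRD, EPHA4, DAB1 and TGFB2 had 0 regions past the limit toward ATRA, and ANO6, IMMP2L and FGGY had 1 each.

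Gene lists were read by their counts past 20 points, beside 15.4% (ATRA) and 14.8% (POM) of all shared regions and a median shift of 0.46. Genes of Polycomb and histone methylation had the highest median, 13.11 points, with 22 of 65 regions higher in ATRA and 5 in POM, and 4 strong ATRA-only peaks against 1 strong POM-only. The strong peaks were at KDM6B and in KDM2B, both histone demethylases, and near MTF2 and CBX8, subunits of Polycomb complexes, while that in PHF19, also such a subunit, was POM-only. Boundary regions at KMT2A (272 reads in ATRA, 51 in POM), BMI1 (242 and 63) and CBX7 (64 and 19) were higher in ATRA, by 26.76, 22.95 and 21.02 points. These 3 calls depended on the ranked quantity: BMI1 fell short of the limit by fold (5.37) and by pileup (6.18), CBX7 likewise (13.24 and 19.87), and KMT2A by pileup (13.16). The t(4;14) and MAP kinase feedback list had 15 of 47 higher in ATRA and 2 in POM. It was led at boundaries by NSD2, the histone methyltransferase gene at the t(4;14) breakpoint (153 reads in DMSO, 107 in ATRA, 19 in POM and 41 in ATRA+POM, a shift of 48.99). ETV4, an ETS factor downstream of MAP kinase, had 155, 154, 17 and 42 reads, and DUSP6, an ERK phosphatase, had 141, 134, 33 and 97 (35.69, but 14.32 by pileup). The DUSP6 region lay 963 bp from the gene boundary and 6229 bp from the DUSP6 start site in the promoter windows. The plasma cell regulators had 15 of 63 higher in ATRA and 2 in POM, with MZB1, a chaperone of antibody secretion, past the limit at its boundary (29.04), though not by fold (10.52) or by pileup (10.05).

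Since lists differ in where their genes lie, their counts were also set against shared regions of the same compartment, gene number and rank level, a comparison chosen after the values were seen and given as a description. Such regions would give 12.0 of 65 higher in ATRA for the Polycomb list (22 observed), 7.04 of 47 for the t(4;14) and MAP kinase list (15 observed) and 8.92 of 63 for the plasma cell list (15 observed). For the 102 regions of ribosomal protein genes they would give 17.6 (21 observed). At boundaries these genes had 16 of 72 regions higher in ATRA and 0 in POM, beside 18.5% and 2.66% of all boundary regions. The ribosomal regions lay among a median of 14 genes within 500 kb. RPS10, RPL7A, RPL32 and RPL23 had the largest of these boundary shifts, 51.37, 42.71, 40.86 and 40.07 points (25.11 by fold for RPL7A and 26.07 by pileup for RPL32), and RPL19 had a strong ATRA-only peak. Of 16 cell cycle genes with a boundary region, 3 were higher in ATRA, close to the 18.5% of all boundary regions: MKI67, the proliferation antigen (126 reads in DMSO, 107 in ATRA, 16 in POM and 31 in ATRA+POM), CCND3 (33.89, and 55.67 by fold and 20.20 by pileup) and PLK1 (22.21, but 17.94 by pileup). The region assigned to CCND3 lay 212 bp from the boundary of TAF8 and 2048 bp from the CCND3 start site in the promoter windows. E2F1 had a strong ATRA-only peak at its boundary. The boundary regions of RPS10, RPL7A, RPL32, RPL23, MKI67, CCND3 and PLK1 ranked lower in both libraries with POM than in DMSO.

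**Figure D4:**
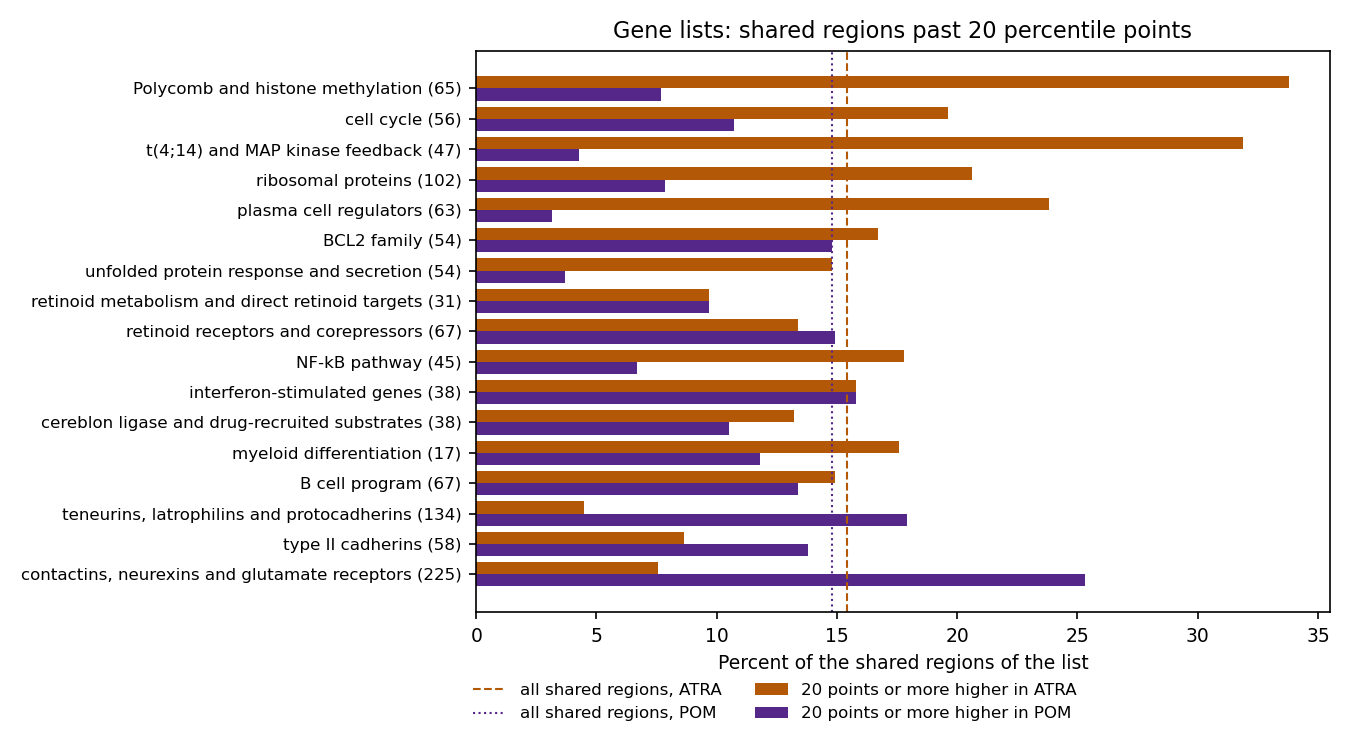
Share of each gene list's shared regions (percent; number of regions in brackets) that ranked 20 percentile points or more higher in ATRA or in POM, with dashed and dotted lines at the shares over all shared regions, 15.4% and 14.8%. The Polycomb, t(4;14) and plasma cell lists reach 33.8%, 31.9% and 23.8% on the ATRA side, and the contactin list reaches 25.3% on the POM side.

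Among genes of neuronal adhesion and synapses, the share of regions higher in POM was above the 14.8% of all shared regions in 2 lists and below it in the third. Contactins, neurexins and glutamate receptors had 57 of 225 regions higher in POM and 17 in ATRA, with 7 strong POM-only peaks and 0 strong ATRA-only. The strong peaks included those in CNTNAP2 (2), CNTN4, GRM8 and GRIK1 and near GRIA2. The teneurins, latrophilins and protocadherins had 24 of 134 higher in POM and 6 in ATRA, with 5 strong POM-only peaks, in TENM4, ADGRL2, PCDH7 and PCDH15 (2). The type II cadherins had 8 of 58 (13.8%) and 5, with strong POM-only peaks at CDH8, CDH12 and CDH18 and a strong ATRA-only peak in CDH22. All 15 of these strong POM-only peaks were called in ATRA+POM and 6 of them in DMSO. The median number of genes within 500 kb was 2, 1 and 1 for the 3 lists. Regions alike in compartment, gene number and level would give 48.9, 28.8 and 11.0 higher in POM, against 57, 24 and 8 observed, so the counts of these lists were near those of their surroundings. At gene boundaries the 3 lists had 7, 7 and 1 regions in the order above. Of these, 3 were past the limit toward ATRA and 1 toward POM, beside 18.5% and 2.66% of all boundary regions. Those toward ATRA were at ADGRL1, a latrophilin (40.60), CDH24 (26.43, shared with ACIN1) and GRIK2, a kainate receptor (24.11), and that toward POM was at GRIA4, an AMPA receptor (-35.55). CDH24 fell short of the limit by fold (6.25) and by pileup (19.25), and GRIK2 by pileup (6.89, against 43.53 by fold).

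Interferon-stimulated genes had regions past the limit in both directions. Of 15 genes with a boundary region, 3 were higher in POM and 2 in ATRA, beside 2.66% and 18.5% of all boundary regions. Over all 38 regions of the list, 6 (15.8%) were higher in each library, near the shares of all shared regions. IFI44 had 20 reads in ATRA and 22 in POM (a shift of -34.80), MX1, an antiviral GTPase, had 13 and 15 (-34.01), and OAS1, an oligoadenylate synthetase, had 48 and 46 (-25.03). OASL (85 and 22 reads, 22.89, but 18.64 by fold) and the deubiquitinase gene USP18 (71 and 18 reads, 23.67) stood on the ATRA side. In DMSO the 3 genes of the POM side had 27, 30 and 66 reads. In ATRA+POM the region at IFI44 was not called, and those at MX1 and OAS1 had 19 and 69 reads. In the NF-kB list NFKBIE, an inhibitor of NF-kB, was higher in ATRA (165 and 23 reads, 52.37, and 33.13 by pileup) and TRAF2, an adaptor of TNF receptors, in POM (58 and 39 reads, -32.14, but -12.40 by pileup). In the BCL2 family BID was higher in ATRA (39.21) and HRK in POM (-20.09, and -37.76 by fold and -12.03 by pileup). The B cell, unfolded protein response and myeloid lists had 1 boundary region each past the limit, all higher in ATRA. The first (23.12) is a promoter of DEXI, 9 bp from the summit, assigned to CIITA as well. The second was at ATF6 (24.14) and the third at FCGR1A (41.96, and 64.84 by fold). The region of CIITA and DEXI fell short of the limit by fold (15.07) and by pileup (12.83), as did ATF6 (15.13 and 18.92). FCGR1A is assigned among near-identical copies and is uncertain.

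Of 67 regions of the retinoid receptor and corepressor list, 9 (13.4%) were higher in ATRA and 10 (14.9%) in POM, near the shares of all shared regions. At boundaries 3 of its 8 regions were higher in ATRA, those of RARB, RARG and RXRA, and 0 in POM, with a median of 3.55 points. Of all boundary regions, 18.5% were higher in ATRA and 2.66% in POM. The region at the most upstream promoter of RARB, the receptor named in the title of the series (chr3:24828922-24830068), had 85 reads in DMSO, 74 in ATRA, 22 in POM and 44 in ATRA+POM and a shift of 27.09 points. RARG had 149, 133, 31 and 80 reads (26.44) and RXRA had 70, 58, 15 and 22 (30.92). Each of these calls was lost under another ranking: RARB was at 17.59 by pileup, RARG at 19.34 by fold and 16.48 by pileup, and RXRA at 16.53 by fold. In all 3 genes DMSO had more reads than ATRA. RARA had no boundary region but a strong ATRA-only peak 1060 bp from the gene (64 reads). Inside and around RARB the picture was mixed: of 14 shared regions 1 ranked 20 points higher in ATRA and 5 in POM, with a median of -11.36. The internal RARB promoter that carries the known retinoic acid response element is shown because ATRA acts through this element, with the element in capitals.
RARB (chr3:25428013-25428262, + strand): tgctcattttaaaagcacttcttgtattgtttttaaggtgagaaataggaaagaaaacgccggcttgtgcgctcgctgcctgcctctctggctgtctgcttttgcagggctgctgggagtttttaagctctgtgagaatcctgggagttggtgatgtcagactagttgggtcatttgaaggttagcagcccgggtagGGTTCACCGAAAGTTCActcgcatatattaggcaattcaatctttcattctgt
The element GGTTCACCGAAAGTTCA starts 53 bases before the start site. No peak of any of the 4 lists overlapped this stretch. Among retinoid target and metabolism genes, CYP26A1, which degrades ATRA and is a classical induced target, had a shift of 15.50 at its boundary (68 reads in DMSO, 57 in ATRA, 19 in POM and 60 in ATRA+POM), which was -1.27 when ranked by fold. This region lay at the far end of the gene, 4469 bp from the CYP26A1 start site in the promoter windows. Its reads therefore do not describe that promoter. CYP26B1, DHRS3 and CRABP2 had no boundary peak in ATRA or POM. Of the 5 genes of this list with a boundary region, 0 passed the limit in either direction. RXRB had no assigned shared region. RXRG had 6, with a median shift of 2.87 points, 0 of them past the limit toward ATRA and 1 toward POM.

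The boundary regions of CRBN and of IRF4 and MYC, which act downstream of POM, were within the limit. CRBN, which encodes cereblon, had 162 reads in DMSO, 148 in ATRA, 84 in POM and 170 in ATRA+POM at its boundary and a shift of -5.47 points. IRF4 had 371, 303, 94 and 149 reads (2.08), MYC 151, 126, 51 and 65 (3.33), PRDM1 92, 87, 30 and 46 (9.09) and CD38, the antibody target, 217, 227, 65 and 148 (8.08). The PRDM1 region lay 27 bp from the gene boundary but 93673 bp from the PRDM1 start site in the promoter windows. None of these 5 passed the limit, and 4 did not keep their sign: by fold CRBN was at 0.39, IRF4 at -9.24, MYC at -5.41 and PRDM1 at -6.79, and by pileup MYC was at -0.69. Within the cereblon list, the ligase subunit RBX1 (22.39) and the region shared by CUL4A and PCID2 (24.92) did, both toward ATRA. RBX1 was at 36.69 by fold and 14.48 by pileup, and the CUL4A region at 13.38 and 15.70, short of the limit. IKZF1 had 7 shared regions with 1 past the limit in each direction, and IKZF3 had 4, with 1 higher in ATRA and 0 in POM. At a boundary of IKZF3 a peak was called in POM, ATRA+POM and DMSO and not in ATRA. FGFR3, the other t(4;14) gene, had 1 shared region, at 16.92 points. At its boundaries 2 peaks were called in DMSO, 0 in ATRA, 1 in POM and 2 in ATRA+POM.

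The 2 libraries that were not used to choose the regions fell on opposite sides. Over the 42909 regions called in all 4 lists, percentiles were taken again in each library. The 6862 regions higher in ATRA by 20 points or more had median percentiles of 54.2 in DMSO, 58.1 in ATRA, 22.5 in POM and 33.2 in ATRA+POM. The 6345 regions higher in POM had 28.8, 20.8, 60.6 and 54.0. The DMSO rank was nearer to ATRA than to POM in 83.5% of the first set, 82.3% of the second and 71.8% of all regions. The ATRA+POM rank was nearer to POM in 67.2%, 73.3% and 60.5%. A region chosen for an extreme rank in 1 library lies nearer the middle in any other, and this choice is part of each median for DMSO and ATRA+POM. By compartment, the median percentile of boundary regions was 85.1 in DMSO and in ATRA, 78.4 in POM and 78.9 in ATRA+POM. For desert regions it was 29.5, 31.1, 40.2 and 44.1. DMSO and ATRA stood on one side in both compartments, and the 2 libraries with POM, which are also the 2 shallower libraries, on the other. ATRA+POM had an estimated depth between those of ATRA and POM and a desert median beyond that of POM. The part of depth in these medians was not tested.

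**Figure D5:**
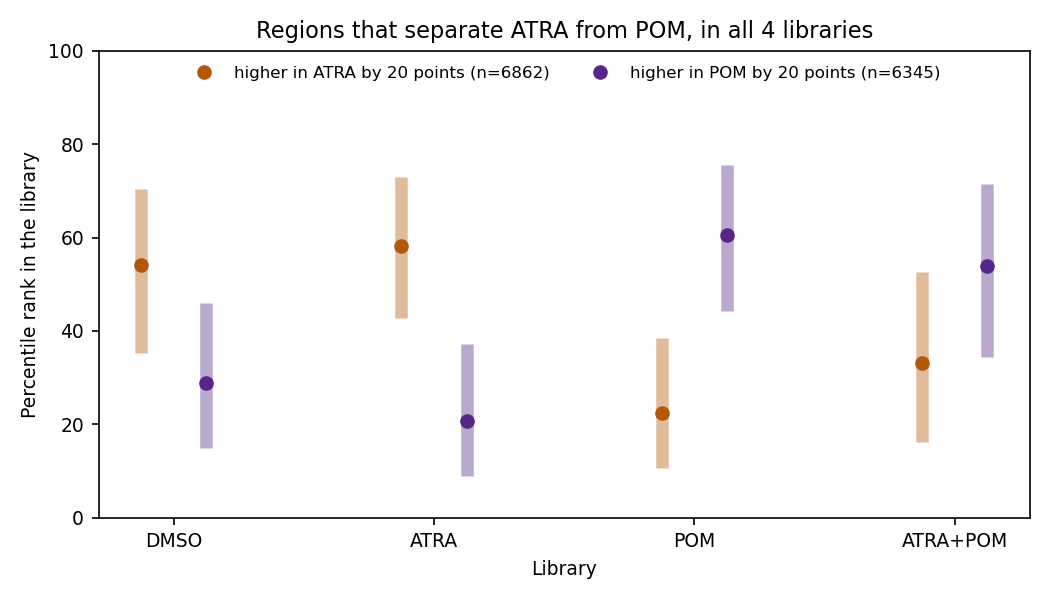
Percentile rank in each library, over 42909 regions called in all 4 lists, of the 6862 regions higher in ATRA and the 6345 higher in POM by 20 points or more; points are medians and bars span the middle 50% of regions. DMSO (54.2 and 28.8) has the order of ATRA, and ATRA+POM (33.2 and 54.0) the order of POM.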

How the data were processed

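ATAC-seq peak lists of 4 OPM-2 libraries, 1 per condition by the treatment label, were used, and 2 of them were compared. Nuclei were tagged with Tn5 and sequenced, per the labels' protocols. The authors deposited 1 peak list per library, not pooled, on hg38 per the submitters' processing notes. Not given in the sources used here are the aligner, the peak caller, its settings and any Tn5 shift, and no scaling between libraries is recorded. For each peak the authors deposited a score (the −log10 q-value times 10, cut to a whole number), a fold (a ratio of summit pileup to background, judged from the values), a −log10 p-value, a −log10 q-value and a summit position. Read totals were not used here, so depth is an estimate.

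Peaks on chromosomes 1 to 22 and X were taken with Python 3.11.15 (numpy 2.4.6, pandas 2.3.3, scipy 1.17.1, matplotlib 3.10.9). Overlapping ATRA and POM peaks were joined into regions that took the highest −log10 q-value of each list. Of the 47374 shared regions, 45556 joined 1 peak of each list. Counts of peaks without overlap were the same with bedtools 2.31.1. The whole-number summit pileup and the background were recovered from the deposited fold and p-value under a Poisson tail, an assumption about the caller. It gave the −log10 p-value within 0.01 for 99.69% of ATRA and 99.98% of POM peaks. Relative depth is the commonest background per base of the narrowest peak in each list. Compartments used the summit and 19970 protein-coding genes of a RefSeq table (GRCh38.p14, the assembly of hg38). A region belongs to the nearest gene body within 100 kb. The code was tested on simulated data.

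Named were, per direction, the 10 strongest list-specific peaks, the 10 largest shifts among shared regions and among boundary regions in the 20000 highest of either list, the 5 genes with most strong list-specific peaks, 8 genes by median shift, 5 windows, 19 genes whatever their value, and list members with a strong list-specific peak or a boundary region past the limit. A few genes picked by this rule are not reported here. Each promoter window was joined to the overlapping region of highest rank. The members and lists were chosen with earlier results of these data known. Alternatives changed the ranking value, the threshold, the overlap, the number of strong peaks and the limit.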

Additional observations from a re-analysis of the deposited data

How the results depend on the processing

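With 1 library per condition no spread between replicates exists, so every value describes these libraries alone. No paired analysis was possible because each group holds 1 library and no test was run. POM is the shallower library, its peaks are narrower, and a missing peak in a list does not show closed chromatin.

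Of 76 values recomputed for 14 results, 47 moved beyond a set range. No recomputed median shift changed sign, and the counts and shares have no sign to change. The range was a factor of 1.5 either way for the counts of strong peaks, and the 95% counting interval for shares and medians. The cause was not tested. The strong ATRA-only count of 364 became 8 and 2005 with the 10000 and 30000 highest peaks, 910 when ranked by fold, 673 when no summit of the other list could lie within 500 bp, and 5140 when at least 50% of a peak had to overlap. The strong POM-only count of 669 became 123 and 1853 with the 10000 and 30000 highest peaks and 1109 with the summit rule. The share at a gene boundary became 26.4% (ATRA-only) and 8.52% (POM-only) within 5 kb, and 50% of the 8 ATRA-only peaks among the 10000 highest. Over all peaks, the share without overlap became 31.8% (ATRA) and 20.3% (POM) at a −log10 q-value of 5 or more, 33.1% and 30.6% in lists of equal length, and 58.9% and 31.0% with the 50% overlap. Ranked by fold, the median shift was 2.69 at boundaries, -1.68 in deserts, -1.53 and 1.57 with fewest and most genes, 5.53 on chromosome 19 and -2.53 on chromosome 4. Ranked by pileup, it was 3.60, -7.12, -6.74 and 8.59 in the first 4 of these. Over regions in all 4 lists it was 4.65 at boundaries, -6.87 in deserts and 7.74 with most genes. At a −log10 q-value of 5 or more it was 4.84, -8.31, -7.74 (fewest genes), 7.80 (most) and -5.83 (chromosome 4). The shares past the limit were 28.9% (ATRA) and 27.3% (POM) at 10 points, 7.18% and 7.67% at 30 points, 16.8% and 16.4% by fold, 13.6% and 13.6% by pileup, 16.1% and 15.5% over regions in all 4 lists, and 16.8% and 16.2% at the stricter threshold. Requiring both summits within 200 bp, an alternative chosen after seeing the data, left the medians within their counting spread. Of 85 named regions past the limit, 70 remained past it by fold and 65 by pileup, with 0 changes of sign. Within the limit, CYP26A1, CRBN, IRF4, MYC and PRDM1 changed sign by fold (-1.27, 0.39, -9.24, -5.41 and -6.79) and MYC also by pileup (-0.69).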

Other observations

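Some boundary peaks of cell type markers differed between the 2 libraries and are given as values, picked after they were seen. MPO, the myeloperoxidase of granulocyte precursors, had 2 boundary peaks in ATRA and 0 in DMSO, POM and ATRA+POM. ITGAM, an integrin of myeloid cells, had 1 in POM and 0 in the other 3 libraries. SLAMF7, a surface antigen of plasma cells, and CD2, a T cell adhesion receptor, each had 1 in POM and in ATRA+POM and 0 in DMSO and ATRA. CD3D, a chain of the T cell receptor complex, had 1 in DMSO and in ATRA and 0 in both libraries with POM.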
